A study of Mus musculus with 12 samples.

Results

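The genes described here encode the collagens of mouse quadriceps muscle, the enzymes that crosslink them, and the proteoglycans and glycoproteins that sit with them in the extracellular matrix. They were taken by symbol from the coding genes of the deposited tables: every collagen chain gene, Lox and Loxl1 to Loxl4, and Fn1, Dcn, Lum, Bgn, Fmod, Postn, Sparc, Fbn1 and Timp1. This gave 55 genes of 15344, of which 41 are collagen chains and 14 are not. RNA-Seq was performed on quadriceps of 12 C57BL/6 mice that were 6 months old, with 4 mice in each of 3 groups. For WT mice neither a treatment nor the sex is given. KO mice, males labelled as lacking acid alpha-glucosidase (GAA), a model of Pompe disease, received PBS. AAV mice were male GAA-KO mice given AAV2/8-LSPhGAApA, a vector for human GAA under a liver-specific promoter, by tail vein at 2 months of age and 2e12 vg/kg, with harvest 4 months later. The KO and AAV groups share the GAA-KO genotype by their labels, and the transgene is under a liver promoter while muscle was sequenced.

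Fibrillar collagens give muscle connective tissue its tensile strength, type IV collagen forms the network of the basement membrane around each fibre, and type VI collagen joins that membrane to the fibrils. Lysyl oxidases crosslink collagen and elastin, small proteoglycans bind fibrils and set their spacing, and tissue inhibitors of metalloproteinases limit matrix breakdown. In muscle most of these transcripts come from fibroblasts and other mononuclear cells, and the fibres contribute some. In RNA from whole muscle, fewer cells of a type and less RNA per cell cannot be told apart.

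Values are normalized counts, that is reads per gene divided by the size factor of the library. Groups were compared by limma on log2(normalized count + 1) with Benjamini-Hochberg adjustment over all genes tested, and genes with an adjusted p under 0.05 are given as called. Between 22122233 and 47379737 reads were counted per library. Gaa, the gene the KO label names, went against the labels: its normalized counts were 343, 14640.2, 324 and 460.3 in WT libraries 1 to 4, 12151, 13074, 11936 and 12895 in KO libraries 1 to 4, and 947, 587, 499.6 and 9854 in AAV libraries 1 to 4. Libraries are therefore named by their labels, every direction rests on those labels, and WT 2 and AAV 4 stood apart within their groups. Leaving out WT 2 (all other libraries kept) changed the number of matrix genes called for KO against WT from 17 to 10, and leaving out AAV 4 changed that between AAV and KO from 12 to 11. Calls over all genes fell too. Without WT 2, 17.9% of all genes were called, beside 12.3% higher and 15.3% lower with it. Without AAV 4, 22.11% were called, beside 12.8% higher and 13.4% lower with it. Among the marker lists of 9 cell types, 0 genes were at 0 in all libraries. The summed normalized counts of 10 muscle fibre markers were 4531944 to 7822778 in all 12 libraries.

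Promoter sequence is shown for Timp1, which had the largest fall in the libraries labelled KO, and for Col4a4, whose window also reaches the start of Col4a3, the gene with the lowest adjusted p among those that rose. RefSeq windows of 300 bases on GRCm38.p6, from 250 bases before to 50 after the start of transcription, were matched for 40 of the 55 genes. The Timp1 window (chrX:20869916-20870215, + strand) has in capitals the letters TGAGTAA, a variant of the AP-1 site, and AGGAAG, an ETS core. The Col4a4 window (chr1:82586800-82587099, - strand) has in capitals the 71 bases between the start of Col4a4 and that of Col4a3, which is transcribed the other way.
Timp1: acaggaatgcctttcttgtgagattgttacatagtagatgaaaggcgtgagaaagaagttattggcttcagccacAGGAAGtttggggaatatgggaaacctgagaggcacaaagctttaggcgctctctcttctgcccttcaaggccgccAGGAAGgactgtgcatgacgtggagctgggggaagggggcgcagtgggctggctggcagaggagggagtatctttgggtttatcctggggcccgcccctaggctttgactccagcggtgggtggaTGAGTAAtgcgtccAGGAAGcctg
Col4a4: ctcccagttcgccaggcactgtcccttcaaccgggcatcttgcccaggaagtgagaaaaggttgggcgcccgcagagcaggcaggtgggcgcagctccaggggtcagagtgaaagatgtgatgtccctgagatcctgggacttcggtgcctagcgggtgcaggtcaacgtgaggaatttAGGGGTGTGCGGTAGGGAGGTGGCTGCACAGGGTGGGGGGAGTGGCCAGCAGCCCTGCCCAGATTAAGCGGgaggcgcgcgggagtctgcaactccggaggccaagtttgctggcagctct
Searched on both strands, TGAGTAA occurred in 2.68% of all 32851 windows and in those of 2 of the 40 matrix genes, Timp1 and Col28a1. AGGAAG occurred in 35.4% of all windows and in those of 14 matrix genes. The letters TGAGTCA, the common form of the AP-1 site, occurred in 5.20% of all windows and, among the matrix genes, in that of Col6a1. In GENCODE M21, starts of the type IV chain genes face each other in pairs. Col4a1 and Col4a2 on chromosome 8 overlap by 22 bases at their starts, the starts of Col4a3 and Col4a4 on chromosome 1 are separated by 71 bases, and those of Col4a5 and Col4a6 on the X chromosome by 1308 bases.

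Between the libraries labelled KO and WT, 53 matrix genes were tested and Col9a2 and Col9a3 lay under the filter on low values. Of the 53, 6 were higher in the libraries labelled KO (11.3%, against 12.3% of all 14859 genes tested) and 11 were lower (20.8%, against 15.3%). When a change of 1 or more on the log2 scale was required too, 10 were called (18.9%, against 13.9%). In 14 genes the KO and WT values did not overlap (26.4%, against 28.3% of all genes). These shares were near those of all genes, so the matrix genes as a whole were not set apart by how many were called. Their median log2 fold change was -0.28, beside 0.02 over all genes. Of the 17 calls, 8 were kept in each of the 8 fits that left out 1 library, those of Timp1, Loxl1, Col16a1, Col23a1, Col6a5, Col4a3, Col4a4 and Col4a6. The other 9 were kept in 1 or 2 of the 8 fits, and the number called was 8 to 11 without any one library other than WT 3, and 24 without WT 3.

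**Figure D1:**
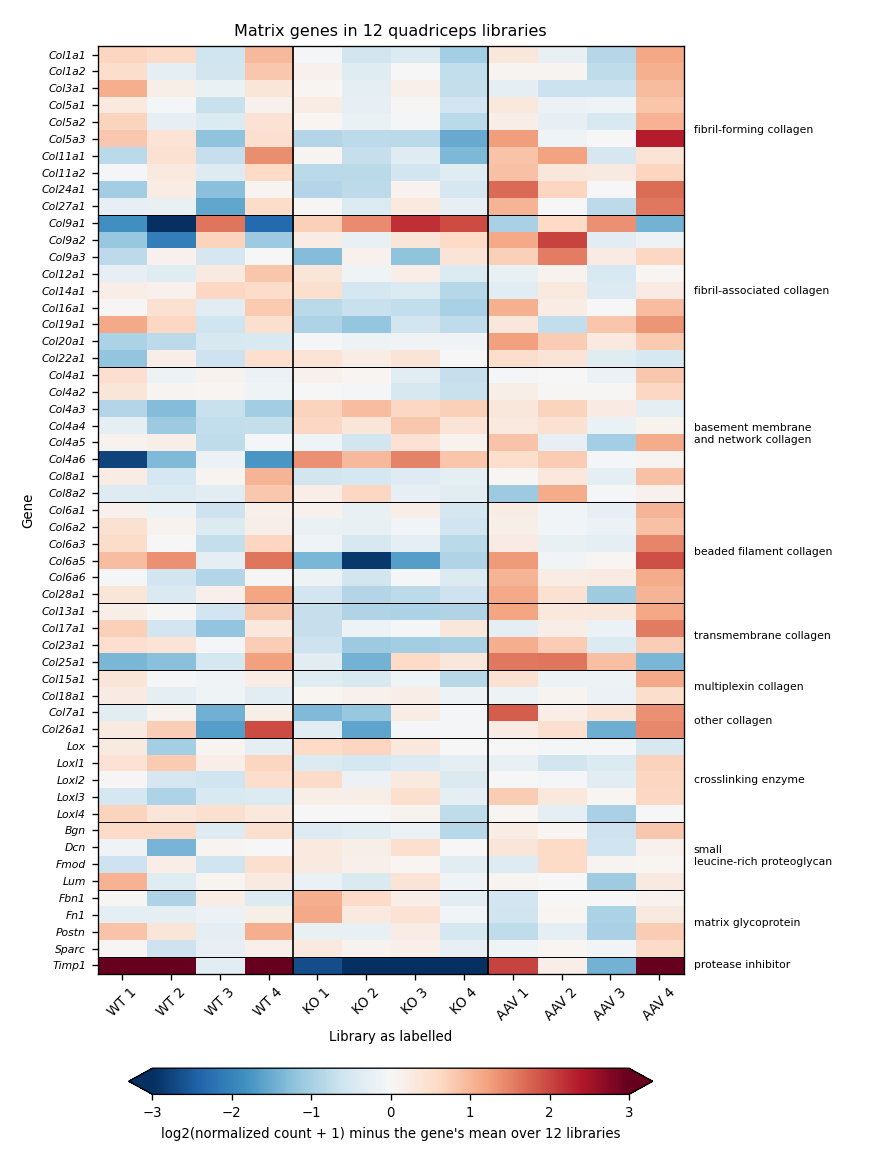
Heat map of the 55 matrix genes (vertical axis, by role) in the 12 libraries (horizontal axis); colour is log2(normalized count + 1) minus the gene's mean over the 12 libraries, and values past 3 in either direction share the end colour. The rows of Timp1 and Col6a5 are lowest in the 4 KO columns, those of Col4a3, Col4a4 and Col4a6 are higher there than in the WT columns, and the AAV 4 column is highest of its group in 30 of 55 rows.

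Timp1, a secreted inhibitor of matrix metalloproteinases, showed the largest difference of any matrix gene. Its normalized counts were 752, 1151, 67.4 and 1349 in WT libraries 1 to 4, 12.6, 7.70, 3.26 and 2.65 in KO libraries 1 to 4, and 345, 97.7, 30.7 and 937 in AAV libraries 1 to 4. Every KO value was below every WT and every AAV value, WT 3 and AAV 3 were the lowest of their groups, and WT 2 and AAV 4, which stood apart by Gaa, lay with the high values. Group means were 829.9 ± 566 in WT, 6.54 ± 4.60 in KO and 352 ± 412 in AAV (SD, n = 4 each). The log2 fold change was -6.34 for KO against WT (SE 0.86, adjusted p = 0.0016, limma) and 4.77 for AAV against KO (SE 0.91, adjusted p = 0.00795, limma). Without WT 2 the first was -5.97 (adjusted p = 0.00743, limma), and without AAV 4 the second was 3.97 (adjusted p = 0.00959, limma). Exact two-sided permutation tests of the normalized counts gave p = 0.0286 for both, the smallest that 4 against 4 allow. Any gene whose groups do not overlap gives this p, so it adds nothing to the lack of overlap. The groups did not overlap in 28.3% of all genes for KO against WT and in 30.6% for AAV against KO. For AAV against WT the log2 fold change was -1.58 (SE 1.15, adjusted p = 0.487, limma), with ranges that overlapped. The Timp1 gene (ENSMUSG00000001131) lies at 20870166 to 20874735 on the + strand of the X chromosome.

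Markers of macrophages, cells that can express Timp1, fell with it in the libraries labelled KO. Of 7 macrophage markers, 5 fell in KO libraries (71.4%, against 15.3% of all genes), with a median log2 fold change of -1.44, and their summed normalized counts were 1372 to 4573 in WT, 741 to 1376 in KO and 801 to 4140 in AAV libraries. Cd68, a lysosomal protein of macrophages that is named after its values were seen, had 560.1, 590.0, 69.8 and 568 normalized counts in WT libraries 1 to 4, 28.2 to 36.7 in KO libraries, and 127, 74.5, 35.4 and 415 in AAV libraries 1 to 4. WT 3 and AAV 3 were again the lowest of their groups and AAV 4 the highest of its own. Between AAV and KO, 0 of the 7 markers were called by limma (2 at an unadjusted p under 0.05, median log2 fold change 0.43), and 2 were called higher by edgeR and 3 by DESeq2. The tendon cell marker Scx and the pericyte marker Cspg4, named after their values were seen, followed the course of Timp1. Scx was lower in KO than in WT (-2.91, adjusted p = 0.00143, limma) and higher in AAV than in KO (1.64, adjusted p = 0.0101, limma). Of 9 tendon markers it was the 1 called by limma in each of these comparisons, and the list medians were -0.21 and 0.19. Cspg4 was at -1.68 (adjusted p = 0.00708, limma) and 1.67 (adjusted p = 0.00714, limma). It went against its list of 7 smooth muscle and pericyte markers, of which 3 others were higher in KO. The medians of that list were 0.72 for KO against WT and -0.06 for AAV against KO. The part of any of these cells in the Timp1 result was not tested.

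**Figure D2:**
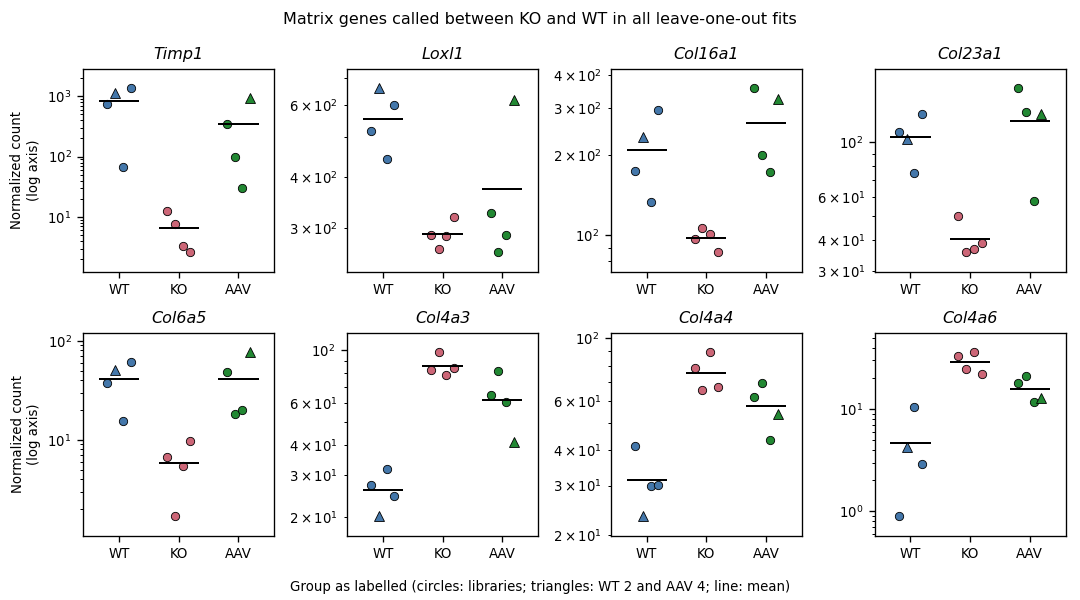
Normalized counts (vertical log axes) of the 8 matrix genes called between KO and WT in every leave-one-out fit, by labelled group; each point is 1 library, triangles are WT 2 and AAV 4, and lines are group means. The 4 KO values lie outside the range of the 4 WT values in all 8 panels, below it for Timp1, Loxl1, Col16a1, Col23a1 and Col6a5 and above it for Col4a3, Col4a4 and Col4a6.

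Among the type IV collagens of the basement membrane, the minor chains of Col4a3, Col4a4 and Col4a6 were higher in the libraries labelled KO, and the minor chain of Col4a5 and the major chains of Col4a1 and Col4a2 were not called. Col4a3 encodes the alpha3 chain, which assembles with alpha4 and alpha5. It had 27.1, 20.2, 31.7 and 24.4 normalized counts in WT libraries 1 to 4, 82.1, 97.5, 78.3 and 84.0 in KO libraries 1 to 4, and 64.8, 81.5, 60.2 and 41.3 in AAV libraries 1 to 4. All KO and AAV values exceeded all WT values, and the AAV range overlapped the KO range, with AAV 4 the lowest of its group. Col4a3 was higher in KO than in WT with a log2 fold change of 1.70 (SE 0.21, adjusted p = 0.000995, limma). Its divergent neighbour Col4a4, which encodes the alpha4 chain, had 41.6, 23.4, 30.0 and 30.2 in WT, 78.3, 65.8, 89.2 and 67.2 in KO, and 62.0, 69.5, 43.7 and 54.1 in AAV libraries 1 to 4. Again no KO or AAV value fell within the WT range. The log2 fold change of Col4a4 was 1.25 (SE 0.23, adjusted p = 0.00552, limma). For Col4a3, 5.65% of the exon bases are shared with C430014B12Rik on the other strand, and without a strand setting reads of the pair cannot be told apart.

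Col4a6 encodes the alpha6 chain, found beside alpha5 in some basement membranes. Its normalized counts were 0.90, 4.25, 10.6 and 2.93 in WT, 32.9, 24.8, 35.9 and 22.1 in KO, and 17.9, 21.1, 11.8 and 12.8 in AAV libraries 1 to 4. The 3 groups did not overlap, with WT lowest and KO highest. The KO against WT log2 fold change was 2.67 (SE 0.51, adjusted p = 0.0066, limma). Its neighbour Col4a5, named after its values were seen, was not called, with means of 78.2 ± 20.4 in WT, 83.5 ± 23.3 in KO and 110.4 ± 66.5 in AAV libraries (SD, n = 4 each). Without WT 2, the log2 fold changes of Col4a3, Col4a4 and Col4a6 were 1.59, 1.13 and 2.73, and all 3 were called by limma.

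The major chains Col4a1 and Col4a2 were far more abundant. Per kilobase of exon, mean normalized counts in the libraries labelled WT were 465 for Col4a1 and 436 for Col4a2, and 2.59 for Col4a3, 2.95 for Col4a4, 11.6 for Col4a5 and 0.58 for Col4a6. The KO against WT log2 fold change was -0.28 for Col4a1 (SE 0.21, adjusted p = 0.346, limma) and -0.40 for Col4a2 (SE 0.17, adjusted p = 0.11, limma). Within a library, the Col4a3 and Col4a4 counts together were 0.76% to 1.03% of those of Col4a1 and Col4a2 in WT, 2.58% to 4.11% in KO and 0.97% to 2.54% in AAV libraries, a ratio that does not depend on the scaling of libraries. AAV 4 gave the lowest of the AAV values, 0.97%, and was the only AAV library within the WT range.

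The chains of the classical type VI collagen, whose loss causes muscle disease in humans, were not called. Col6a1, Col6a2 and Col6a3 had KO against WT log2 fold changes of 0.02, -0.36 and -0.55 (lowest adjusted p = 0.165, limma). Col6a5, a chain related to alpha3(VI), was lower in the libraries labelled KO, at 6.76, 1.71, 5.44 and 9.73 normalized counts in libraries 1 to 4. It had 37.1, 51.0, 15.4 and 60.5 in WT and 48.2, 18.1, 20.1 and 76.2 in AAV libraries 1 to 4. The KO values lay below all others, while the WT and AAV ranges overlapped nearly in full. Its log2 fold change was -2.61 for KO against WT (SE 0.53, adjusted p = 0.00794, limma) and 2.51 for AAV against KO (SE 0.56, adjusted p = 0.0133, limma). Per kilobase of exon its mean was 4.36 in WT and 0.63 in KO, beside 192 and 125 for Col6a3.

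**Figure D3:**
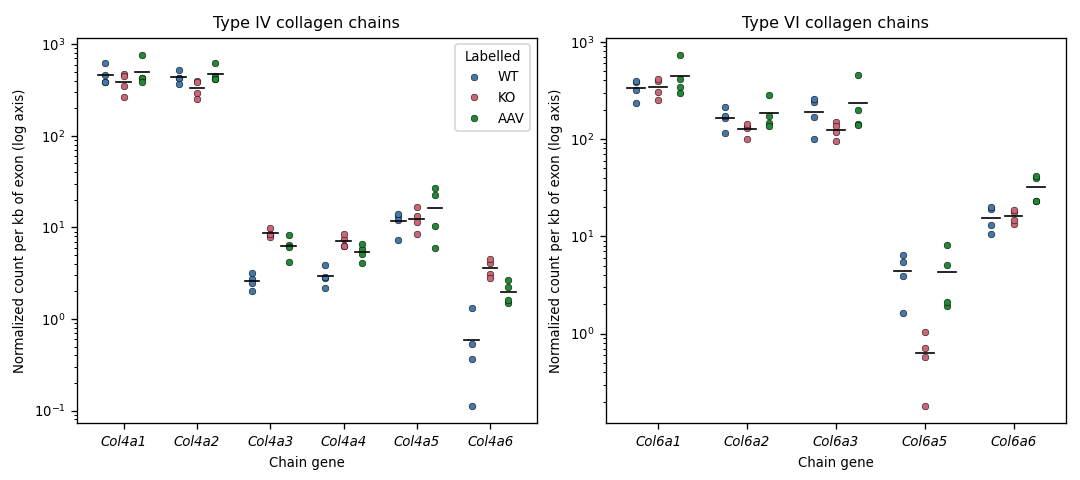
Normalized counts per kilobase of exon (vertical log axes) of the type IV (left) and type VI (right) collagen chain genes; points are the 4 libraries of each labelled group and lines are group means. In WT libraries Col4a3, Col4a4 and Col4a6 average 2.59, 2.95 and 0.58, beside 465 for Col4a1, and they are higher in KO libraries, while Col6a5 falls from 4.36 to 0.63.

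Several minor collagens were lower in the libraries labelled KO. Col16a1, a collagen associated with fibrils, had 175, 233, 134 and 294 normalized counts in WT, 96.6, 107, 101 and 86.7 in KO, and 356, 199, 172 and 325 in AAV libraries 1 to 4. Col23a1, a transmembrane collagen, had 110.4, 103, 74.7 and 131 in WT, 50.2, 35.9, 37.0 and 38.9 in KO, and 165, 133, 57.9 and 130.3 in AAV libraries 1 to 4. For both genes every KO value was below every WT and AAV value. The KO against WT log2 fold changes were -1.03 for Col16a1 (SE 0.24, adjusted p = 0.0128, limma) and -1.33 for Col23a1 (SE 0.22, adjusted p = 0.0039, limma). Col13a1, a transmembrane collagen of the neuromuscular junction, was called as well at -0.97 (adjusted p = 0.0347, limma), as were Col28a1, a beaded filament collagen, at -1.03 (adjusted p = 0.0459, limma) and Col19a1, a minor collagen of basement membrane zones, at -1.26 (adjusted p = 0.0228, limma). Col11a2, a chain of fibril-forming type XI collagen, was lower by 0.75 (adjusted p = 0.036, limma) and the multiplexin Col15a1 by 0.56 (adjusted p = 0.0374, limma). These 5 calls were each lost in at least 6 of the 8 fits that left out 1 library. Col9a1, of the cartilage type IX collagen, was called higher at 3.05 (adjusted p = 0.0337, limma), but WT 3 alone had 29.2 normalized counts and the other WT libraries 0.00 to 1.81, and neither edgeR nor DESeq2 called it.

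The lysyl oxidase family split. Loxl1, which crosslinks elastin, had 518, 659, 442 and 599.8 normalized counts in WT and 288, 267, 287 and 319 in KO libraries 1 to 4, with no overlap. Its log2 fold change was -0.92 (SE 0.15, adjusted p = 0.0036, limma). In AAV libraries 1 to 4 it had 327, 262, 288 and 618, so that 3 of 4 lay near the KO range and AAV 4 in the WT range. Loxl3, named after its values were seen, was higher in KO by 0.71 (SE 0.22, adjusted p = 0.0372, limma), a call kept in 2 of the 8 leave-one-out fits. Of its exon bases, 11.6% are shared with Htra2 on the other strand. Lox, the founding member, had 138, 56.3, 121 and 93.6 in WT, 173, 179, 142 and 115 in KO, and 116, 112, 109.8 and 82.6 in AAV libraries 1 to 4. The KO and WT ranges of Lox overlapped, and its log2 fold change was 0.63 (SE 0.28, adjusted p = 0.118, limma). Loxl2 and Loxl4 were not called.

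The values of the abundant structural genes overlapped between the libraries labelled KO and WT. Col1a1, the alpha1 chain of type I collagen, had 3956, 3776, 1679 and 4972 normalized counts in WT, 2457, 1732, 1898 and 1249 in KO, and 3186, 2163, 1404 and 5654 in AAV libraries 1 to 4. WT 3 lay among the KO values, and the log2 fold change was -0.91 (SE 0.32, adjusted p = 0.0596, limma). Without WT 3, and by edgeR or DESeq2 with all libraries, Col1a1 was called. Its partner Col1a2 and type III collagen, Col3a1, had log2 fold changes of -0.38 and -0.56 and were not called (adjusted p = 0.368 and 0.153, limma). Col5a1, a regulator of fibril diameter, was at -0.07 (adjusted p = 0.843, limma). Of 10 fibril-forming chains, 1 was called lower by limma, Col11a2, and 0 higher, where 15.3% of all genes were lower and 12.3% higher. By edgeR and by DESeq2, 3 were called lower, Col1a1, Col5a3 and Col11a2, and 0 higher. The chains had a median of -0.47, beside 0.02 over all genes.

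Of the 4 small leucine-rich proteoglycans, 1 was called, lower in KO, where 12.3% of all genes were higher and 15.3% lower. Bgn, biglycan, had 1492, 1498, 765 and 1409 normalized counts in WT and 769, 795, 885 and 565 in KO libraries 1 to 4. WT 3 again fell among the KO values, and the log2 fold change was -0.74 (SE 0.23, adjusted p = 0.0393, limma), a call kept in 1 of the 8 leave-one-out fits. Decorin, Dcn, second to Sparc in level per kilobase of exon, had 6424, 2620.4, 7288 and 6810.3 in WT and 8511, 7760, 9626 and 7017 in KO libraries 1 to 4, a log2 fold change of 0.60 (SE 0.29, adjusted p = 0.145, limma). WT 2, high in Gaa, was the lowest of all 12 libraries for Dcn. Lum and Fmod, which also bind fibrils, were at -0.34 and 0.18 (adjusted p = 0.392 and 0.619, limma).

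Of the 4 matrix glycoproteins, 0 were called by limma and by edgeR (2 at an unadjusted p under 0.05), and 2 by DESeq2, Fn1 and Postn. Over all genes limma called 12.3% higher and 15.3% lower. Fibronectin, Fn1, had 556, 549.6, 596 and 766 normalized counts in WT and 1469, 827, 909 and 636 in KO libraries 1 to 4, a log2 fold change of 0.58 (SE 0.23, adjusted p = 0.0884, limma). KO 4 lay within the WT range. Fibrillin 1, Fbn1, was at 0.66 (adjusted p = 0.145, limma), with 20.1% of its exon bases shared with Gm9913 on the other strand. Sparc, a collagen chaperone of the matrix with the highest level per kilobase of the 55 genes, was at 0.25 (adjusted p = 0.329, limma), and periostin, Postn, at -0.69 (adjusted p = 0.107, limma).

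**Figure D4:**
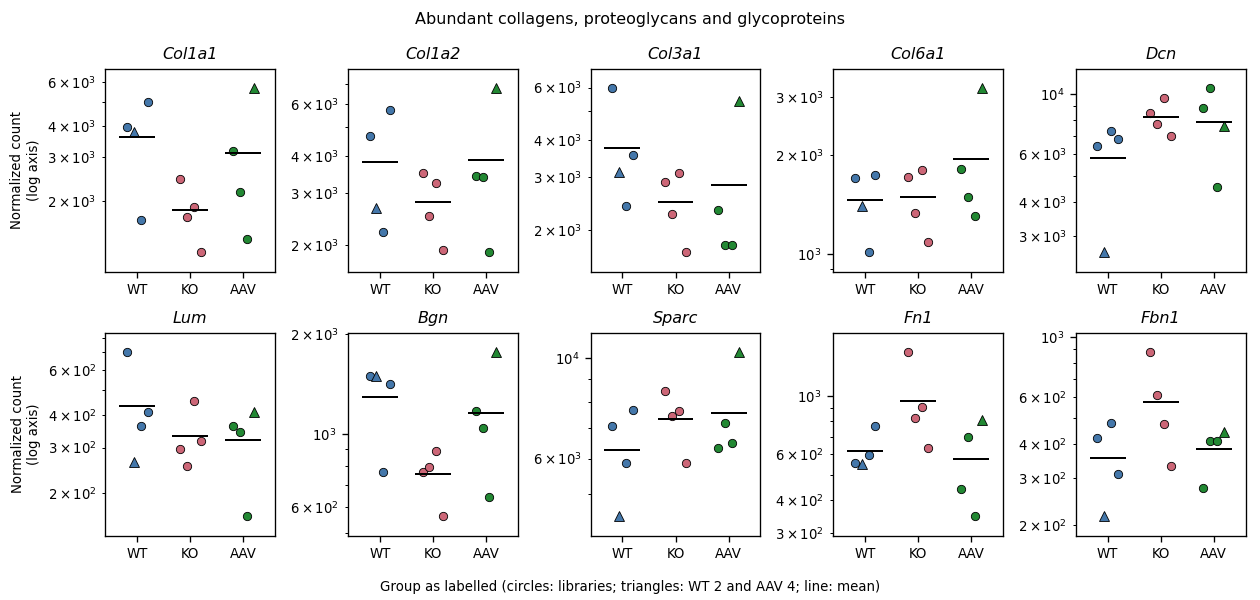
Normalized counts (vertical log axes) of 10 abundant collagens, proteoglycans and glycoproteins by labelled group; each point is 1 library, triangles are WT 2 and AAV 4, and lines are group means. In all 10 panels the KO and WT values overlap, and AAV 4 is the highest AAV library for Col1a1, Col1a2, Col3a1, Col6a1, Lum, Bgn, Sparc, Fn1 and Fbn1.

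By the labels alone, the comparison of AAV and KO addresses the effect of the vector, and it shares the 4 KO libraries with the comparison above. Gaa differed between these groups too, at 11936.2 to 13074.5 normalized counts in KO libraries. It had 946.8, 587.0, 499.6 and 9854.3 in AAV libraries 1 to 4. Whether the differences given here are due to the vector was not tested. Of 55 matrix genes, 12 were higher in the libraries labelled AAV (21.8%, against 12.8% of all 14894 genes tested) and 0 were lower by limma (against 13.4%). At an unadjusted p under 0.05 the lower genes numbered 4, and among adjusted calls edgeR gave 0 and DESeq2 gave 1, Lox. The share higher was above that of all genes and the share lower was below it. When a change of 1 or more on the log2 scale was required too, 10 were called (18.2%, against 8.98%), and in 12 genes the groups did not overlap (21.8%, against 30.6%). The median log2 fold change was 0.39, beside 0.04 over all genes. When libraries were scaled by total reads, the median of all genes moved to 0.21 and that of the matrix genes to 0.55, so that the matrix genes differed from all genes by about the same amount. Calls of Timp1, Col6a5, Col13a1, Col23a1, Col16a1, Col11a2 and Col20a1 were kept in all 8 fits that left out 1 library.

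Several collagens higher in the libraries labelled AAV had been lower in those labelled KO. The log2 fold changes against KO were 1.48 for Col23a1 (SE 0.31, adjusted p = 0.0105, limma), 1.35 for Col16a1 (SE 0.24, adjusted p = 0.00611, limma) and 1.17 for Col11a2 (SE 0.18, adjusted p = 0.00432, limma). For Col13a1, 30.0, 25.7, 25 and 25.6 normalized counts in KO stood against 112, 61.4, 62.6 and 110.1 in AAV libraries 1 to 4, a log2 fold change of 1.61 (SE 0.26, adjusted p = 0.00449, limma). Every AAV value of Col23a1, Col16a1, Col11a2 and Col13a1 was above every KO value. Col19a1 was also higher, by 1.29 (SE 0.39, adjusted p = 0.0356, limma), a call kept in 1 of the 8 leave-one-out fits, that without AAV 2.

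The other 4 genes called between AAV and KO were not called between KO and WT by limma, and the difference between the comparisons was not tested. Col5a3, a minor chain of type V collagen, had 856, 916, 894 and 550.0 normalized counts in KO and 3775, 1452, 1577 and 8035 in AAV libraries 1 to 4. The fold change was 1.87 on the log2 scale (SE 0.48, adjusted p = 0.0204, limma), and 1.38 without AAV 4 (adjusted p = 0.018, limma). The call was lost without AAV 1 and without KO 4, with an adjusted p of up to 0.0619 by limma. It had 2741, 2089, 686 and 2234 in WT libraries 1 to 4, a KO against WT log2 fold change of -1.13 that missed the threshold (adjusted p = 0.0531, limma). By edgeR and DESeq2 it was called between KO and WT. Col24a1, a fibril-forming collagen, had 266, 284, 521 and 340.4 in KO and 1585, 756, 491 and 1554 in AAV libraries 1 to 4. Col7a1, which forms anchoring fibrils, had 581, 662, 1697 and 1410.3 in KO and 5131, 1668, 1908 and 3754 in AAV libraries 1 to 4. For both genes the lowest AAV library lay within the KO range. The log2 fold changes were 1.52 for Col24a1 (SE 0.37, adjusted p = 0.0178, limma) and 1.51 for Col7a1 (SE 0.43, adjusted p = 0.0297, limma), and these calls were kept in 5 and 4 of the 8 leave-one-out fits, with the Col7a1 call lost without KO 1, KO 2, AAV 1 or AAV 4 and that of Col24a1 without KO 1, KO 2 or AAV 1. Col6a6, named after its values were seen, was higher by 0.94 (SE 0.23, adjusted p = 0.019, limma), a call lost without KO 2, KO 4 or AAV 1.

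Of the 6 genes higher in KO than in WT, Col20a1 was higher again in AAV than in KO and the other 5 were not called. Log2 fold changes of AAV against KO were -0.49 for Col4a3 (SE 0.22, adjusted p = 0.122, limma), -0.39 for Col4a4 (SE 0.20, adjusted p = 0.173, limma) and -0.83 for Col4a6 (SE 0.29, adjusted p = 0.0584, limma). Loxl1 was at 0.28 (SE 0.24, adjusted p = 0.404, limma), with AAV 4 alone above the KO range by a wide margin, and Lox at -0.52 (SE 0.19, adjusted p = 0.0674, limma). Of the abundant genes, Col1a1 was at 0.61, Col1a2 at 0.36, Col3a1 at 0.05, Fn1 at -0.75, Dcn at -0.12 and Sparc at 0.03, none called by limma (lowest adjusted p = 0.0934, for Fn1). Without AAV 4, Fn1 was called at -0.94 (adjusted p = 0.0491, limma). The sign of the Dcn value turned to 0.05 with total reads scaling.

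**Figure D5:**
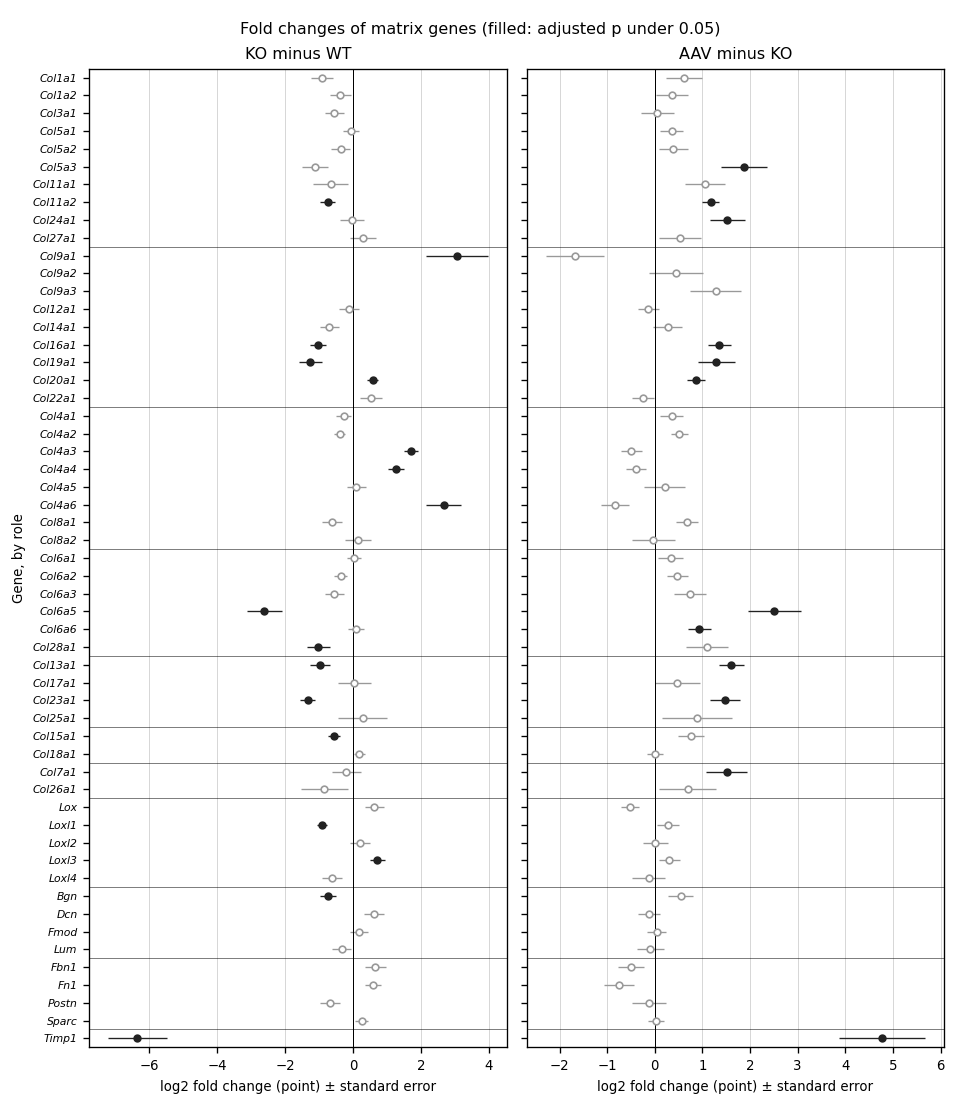
Log2 fold changes (horizontal axes, points) with standard errors (bars) of the matrix genes by role for KO minus WT (left) and AAV minus KO (right), 4 libraries in each labelled group; filled points had an adjusted p under 0.05 by limma. Filled points lie on both sides of 0 on the left, 6 higher and 11 lower, and only above 0 on the right, where 12 are filled.

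Between the libraries labelled AAV and WT, 1 of 55 matrix genes was called, Col20a1, which was higher (1.82%, against 0.951% of 14939 genes higher), and 0 were lower by limma (against 0.341%), by edgeR and by DESeq2, with 2 lower at an unadjusted p under 0.05. The count was also 1 when a change of 1 or more on the log2 scale was required (against 0.951%), and in 9 genes the groups did not overlap (16.4%, against 11.7%). Col20a1, a collagen of the fibril-associated kind, had 74.2, 82.9, 102 and 104 normalized counts in WT, 141, 130.0, 134 and 134 in KO, and 339, 246, 176 and 248 in AAV libraries 1 to 4. The 3 groups did not overlap, with WT lowest and AAV highest. Its log2 fold changes were 0.57 for KO against WT (SE 0.17, adjusted p = 0.0318, kept in 2 of 8 leave-one-out fits), 0.86 for AAV against KO (SE 0.19, adjusted p = 0.0127) and 1.44 for AAV against WT (SE 0.23, adjusted p = 0.0284), all by limma. The last was lost in 6 of the 8 fits that left out 1 library, all but those without WT 3 and AAV 3. It was also lost without WT 2 and AAV 4 together. In that fit 0 matrix genes were called by limma, against 0.07% of all genes, and 11 had an unadjusted p under 0.05. Log2 fold changes against WT were 1.21 for Col4a3 (adjusted p = 0.0673), 0.86 for Col4a4 (adjusted p = 0.14), 1.84 for Col4a6 (adjusted p = 0.137), 1.02 for Loxl3 (adjusted p = 0.065) and -0.64 for Loxl1 (adjusted p = 0.247), none called by limma. In the fit of all 12 libraries together, Col4a3, Col4a4, Col4a6, Loxl3 and Col6a6 were called with Col20a1.

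In all, 21 of the 55 genes were called by limma in at least 1 comparison and 34 in none. Over all genes tested, 12.3% were higher and 15.3% lower for KO against WT. These shares were 12.8% and 13.4% for AAV against KO, and 0.951% and 0.341% for AAV against WT. The share of all genes called in at least 1 comparison was not counted, so the 21 cannot be set against it. Of the 34, 32 were tested between KO and WT, with log2 fold changes of -0.91 to 0.66. All 34 were tested in the other comparisons, with -0.75 to 1.28 between AAV and KO and -0.81 to 1.58 between AAV and WT. The last 2 upper ends were Col9a3 and Col9a2, which with Col17a1 and Col25a1 had a mean under 10 normalized counts. The 34 also take in Col5a2, Col11a1 and Col27a1 of the fibril-forming collagens, and Col12a1, Col14a1 and Col22a1 of the fibril-associated ones. The network chains Col8a1 and Col8a2, the multiplexin Col18a1 and Col26a1 are among them too.

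Libraries of one group differed across the matrix genes together. In the WT group, WT 3 was the lowest for 28 of the 55 genes (50.9%, against 35.4% of all genes) and WT 4 the highest for 28 (50.9%, against 21.1%). KO 4 was the lowest of its group for 32 (58.2%, against 23.9%) and AAV 3 for 35 (63.6%, against 27.8%), and AAV 4 was the highest of its group for 30 (54.5%, against 29.3%). Summed over the 55 genes, normalized counts were 37911 to 58020 in WT, 33901 to 48935 in KO and 37512 to 85070 in AAV libraries, the last in AAV 4, where they were 0.311% of all counts. Leaving out WT 3 moved the number called between KO and WT from 17 to 24. Leaving out AAV 3 moved that between AAV and KO from 12 to 19, where leaving out AAV 1 gave 7. The shares of all genes called in these fits were not counted. Whether the moves were particular to the matrix genes was not tested.

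Genes that make and process collagen were called in both directions. Of 25 collagen processing genes tested, 1 was higher and 4 were lower in the libraries labelled KO against WT (4% and 16%, against 12.3% and 15.3% of all genes), and 2 were higher and 3 lower in AAV against KO (8% and 12%, against 12.8% and 13.4%). The shares lower were near those of all genes. P4hb, a subunit of the prolyl 4-hydroxylase, was lower in KO (log2 fold change -0.56, adjusted p = 0.0136, limma), as was Crtap, of the prolyl 3-hydroxylase complex (-0.99, adjusted p = 0.0143, limma). Pcolce2, an enhancer of procollagen cleavage, was higher in KO (1.56, adjusted p = 0.0177, limma) and lower in AAV than in KO (-0.90, adjusted p = 0.0198, limma). Mia3, which exports procollagen from the endoplasmic reticulum, was lower in AAV than in KO (-0.70, adjusted p = 0.00796, limma).

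Among 26 matrix proteases and inhibitors other than Timp1, 4 were higher and 7 lower in KO against WT (15.4% and 26.9%, against 12.3% and 15.3% of all genes), with 4 higher and 1 lower of 25 in AAV against KO (16% and 4%, against 12.8% and 13.4%). The shares higher were near those of all genes. Mmp15, a membrane-bound metalloproteinase, was lower in KO (-0.87, adjusted p = 0.00764, limma) and was higher in AAV than in KO (0.52, adjusted p = 0.0406, limma). Serpine2 was higher in KO (0.88, adjusted p = 0.016, limma), and Reck, an inhibitor of metalloproteinases, was lower in AAV than in KO (-0.76, adjusted p = 0.0305, limma).

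In the TGF-beta pathway, a main regulator of matrix genes, 7 of 25 genes were higher and 3 lower in KO against WT (28% and 12%, against 12.3% and 15.3% of all genes). The ligand Tgfb1 had 850.1 ± 507 normalized counts in WT, 93.0 ± 21.5 in KO and 347 ± 228 in AAV libraries (SD, n = 4 each), with a KO against WT log2 fold change of -2.91 (SE 0.50, adjusted p = 0.0043, limma). The transducer Smad3 was higher in KO, at 4208 ± 619 beside 1877 ± 458 in WT (log2 fold change 1.18, adjusted p = 0.00253, limma), and lower in AAV than in KO (-1.16, adjusted p = 0.0165, limma). Lrrc32, which holds latent TGF-beta on cells, was higher in KO (1.69, adjusted p = 0.00275, limma) and lower in AAV than in KO (-0.96, adjusted p = 0.0138, limma). Between AAV and KO, 3 of the 25 were higher, among them the latent TGF-beta binding protein Ltbp1 (0.80, adjusted p = 0.0107, limma), and 10 were lower (12% and 40%, against 12.8% and 13.4% of all genes).

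Of 38 other matrix proteins, 14 were higher and 5 lower in KO against WT (36.8% and 13.2%, against 12.3% and 15.3% of all genes), and 2 were higher and 5 lower in AAV against KO (5.26% and 13.2%, against 12.8% and 13.4%). Cilp, a matrix protein of cartilage and fibroblasts, was lower in KO, at 423 ± 122 beside 2074 ± 283 in WT (log2 fold change -2.33, SE 0.21, adjusted p = 0.00021, limma), and higher in AAV than in KO at 2744 ± 1300 (2.62, SE 0.33, adjusted p = 0.0016, limma; SD, n = 4 each). Agrn, agrin of basement membranes, was higher in KO than in WT (1.09, adjusted p = 0.00101, limma) and in AAV than in KO (0.58, adjusted p = 0.0124, limma). Spon1 was higher in KO (1.32, adjusted p = 0.00152, limma), and the proteoglycan Prelp was lower in AAV than in KO (-0.99, adjusted p = 0.00796, limma). Of 24 matrix receptors, 2 were higher and 8 lower in KO against WT (8.33% and 33.3%, against 12.3% and 15.3% of all genes). In AAV against KO, 3 were higher and 2 lower (12.5% and 8.33%, against 12.8% and 13.4%). The receptors called in KO against WT included the collagen receptor chains Itga11 (1.48, adjusted p = 0.00994, limma) and Itgb1 (-0.65, adjusted p = 0.0212, limma). Dag1, the dystroglycan that binds laminin, was lower in AAV than in KO (-1.19, adjusted p = 0.0028, limma).

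Marker lists of the cells that can hold matrix transcripts differed between the groups, and their part in the matrix results was not tested. In KO against WT, 4 of 12 fibroblast markers were higher (33.3%), where 12.3% of all genes were higher and 15.3% lower, with summed normalized counts of 17948 to 28031 in WT, 25253 to 38379 in KO and 23952 to 31313 in AAV libraries. Of 9 tendon markers 1 was lower, the transcription factor Scx (504.3 ± 276 in WT, 59.3 ± 13.5 in KO and 201.2 ± 96.2 in AAV libraries, SD, n = 4 each), of 7 endothelial markers 4 were higher (57.1%), and of 7 smooth muscle and pericyte markers 3 were higher (42.9%) and 1 lower. For 6 adipocyte, 6 Schwann cell and 4 satellite cell markers, 0 were called by limma (1, 2 and 2 at an unadjusted p under 0.05), while edgeR and DESeq2 each called 1 adipocyte marker, and of 10 muscle fibre markers 1 was higher (10%) and 2 were lower (20%). In AAV against KO, where 12.8% of all genes were higher and 13.4% lower, 1 fibroblast marker was higher and 1 lower, 1 marker each of tendon, endothelial, smooth muscle and satellite cells and 2 of muscle fibres were higher, and 0 adipocyte or Schwann cell markers were called by limma, edgeR or DESeq2 (0 at an unadjusted p under 0.05).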

How the data were processed

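RNA-Seq of quadriceps was analysed in 12 libraries, 4 per labelled group, whose replicate numbers stand for different mice. Per the methods, the authors trimmed reads with Trim Galore 0.4.1 (minimum 20 nt), checked them with FastQC 0.11.2, aligned them with STAR to GRCm38 with Ensembl version 73 annotation, counted unique reads per gene with HTSeq 0.6.1, kept genes with 10 reads in any library and scaled counts with DESeq2 1.16.1. The strand setting of the counting is not given in the sources used here. The 2 deposited tables hold the authors' normalized counts, a signal equal to whole reads divided by 1 size factor per library, with the same KO values in both. Reads were recovered as whole numbers (within 0.1) for 100% of values, and gave 22122233 to 47379737 reads per library. Shallower libraries, mostly AAV, measure low genes less precisely. Columns of the authors' fold changes and p-values were not used.

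The 2 tables were joined by gene identifier. log2(normalized count + 1) was fitted with limma 3.58.1 (trend and Benjamini-Hochberg adjustment over all genes tested) in R 4.3.3, on the 8 libraries of each comparison and on genes with at least 10 normalized counts in any of them. Fold changes on this scale understate those of low genes. Alternatives were edgeR 4.0.16 (quasi-likelihood) and DESeq2 1.42.0 on recovered reads, TMM and total reads scaling, no filter, a mean of at least 50, a pseudocount of 0.1, all 12 libraries in one fit, the replicate number as a block, leaving out libraries, and a call rule that also required a change of 1 or more on the log2 scale. The fits were tested on simulated data. Exon lengths, coordinates and overlaps came from GENCODE M21 on GRCm38, which held 15186 of 15344 identifiers, and promoters from RefSeq on GRCm38.p6. Summaries and figures used Python 3.11.15, pandas 2.3.3, scipy 1.17.1 and matplotlib 3.10.9.

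The matrix genes and the lists of processing genes, proteases and inhibitors, TGF-beta genes, other matrix proteins, receptors and cell type markers were chosen with earlier results of these data known. Genes were named if they were Gaa, if they were matrix genes called with a change of 1 or more on the log2 scale in any comparison, or if they were main members of their role, and for each pathway list up to 3 called genes with the lowest adjusted p per comparison were eligible, of which 1 is not reported here. Samples with the same replicate number did not deviate together in every pair. Correlations of their deviations over 15154 genes ran from -0.355 to 0.554. The highest were 0.554 between AAV 3 and WT 3 and 0.478 between AAV 4 and WT 4, and all others were at most 0.062. The numbers were not treated as pairs.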

Additional observations from a re-analysis of the deposited data

Results flagged for a closer look

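Within groups of 4, a library was set apart when its gap to the nearest other value, as a share of the range of the group, exceeded Dixon's 95% limit. Of 168 groups tested, that is Gaa and the 55 matrix genes in 3 labelled groups, 12 passed, where chance alone gives about 1 in 20 groups, or 8.4. For Gaa they were WT 2 at 14640.2 normalized counts (the others 323.8 to 460.3) and AAV 4 at 9854.3 (the others 499.6 to 946.8). AAV 4 also stood above its group for Col4a1 at 5672.3 (2881.7 to 3222.7), Col3a1 at 5402.5 (1778.0 to 2325.1) and Col17a1 at 22.0 (5.5 to 8.1). WT 4 stood above its group for Col8a2 at 28.3 (11.7 to 12.2) and Col25a1 at 10.7 (0.9 to 2.4). WT 3 was above the other WT libraries for Col9a1 at 29.2 (0.0 to 1.8) and below them for Bgn at 765.4 (1409.3 to 1497.8). KO 4 was below its group for Loxl4 at 9.7 (17.1 to 18.5) and Col5a3 at 550.0 (856.1 to 915.9), and KO 1 was above it for Col13a1 at 30.0 (25 to 25.7). What set these libraries apart was not tested.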

How the results depend on the processing

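The number of matrix genes called between KO and WT, 17, was 10 with a change of 1 or more on the log2 scale required, and 8 to 24 when 1 library was left out. With the replicate number as a block it was 11. The same block gave 12 between AAV and KO, where 12 were called without it, and 2 between AAV and WT, where 1 was called without it. The numbers stand for different mice and do not pair the samples. Between AAV and KO the count was 19 with DESeq2 and 7 to 19 when 1 library was left out (7 without AAV 1, 19 without AAV 3). Between AAV and WT the count was 6 with DESeq2, 2 with total reads scaling and 6 with all 12 libraries in one fit. It was 0 to 2 when 1 library was left out and 0 without WT 2 and AAV 4, where 0.07% of all genes were called. The cause was not tested. Counts under the other alternatives were within 1.5 times the reported ones.

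Log2 fold changes near 0 changed sign. Between AAV and KO, Dcn was 0.047 and Lum 0.07 with total reads scaling, and Postn was 0.007 with edgeR, 0.018 with DESeq2 and 0.04 with total reads scaling. With 1 library left out, KO against WT ran from -0.268 to 0.074 for Col5a1 and -0.142 to 0.163 for Col6a1, and AAV against KO ran from -0.315 to 0.22 for Col3a1, -0.277 to 0.124 for Dcn, -0.121 to 0.197 for Fmod, -0.242 to 0.201 for Lum, -0.486 to 0.093 for Postn and -0.129 to 0.104 for Sparc.

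Depth differed 2.14-fold between libraries, so that Col6a5, Col4a6 and Col9a1, which have few reads in some groups, rest on small counts, and a mean of at least 50 removed them from the tests. Gaa goes against the labels, and every direction rests on the labels.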
